A study of Mus musculus with 6 samples.

Results

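This section describes 8 mouse genes: the receptors for the constant (Fc) part of IgG, Fcgr1, Fcgr2b, Fcgr3 and Fcgr4, the neonatal Fc receptor Fcgrt, the adaptor chains Fcer1g and Tyrobp, and the kinase Syk. They were picked by symbol from 57132 annotated genes, and all 8 passed the filter on low counts that left 10554 genes for testing. The study sequenced mRNA from dendritic cells that had been raised from the bone marrow of female C57BL/6 mice aged 6 to 8 weeks. Both groups were cultured in medium with dialyzed serum and 15 ng/mL of GM-CSF, received fresh medium on days 2 and 4, and were lysed for RNA on day 5. The 0Q group had no added queuine and the 100Q group had 100 nM queuine, and each had 3 libraries. Cells take up queuine to make queuosine, which replaces guanosine in the anticodon of 4 tRNAs, those that carry Tyr, His, Asp and Asn. Whether the triplicate wells came from separate animals is not stated, so a p-value here reflects the spread among these 6 cultures and that spread may be technical in part.

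Fc receptors let myeloid cells sense antibody-coated targets. The activating receptors Fcgr1, Fcgr3 and Fcgr4 bind IgG outside the cell and signal through Fcer1g, a short chain that carries an immunoreceptor tyrosine-based activation motif (ITAM). Src family kinases phosphorylate the tyrosines of the ITAM, Syk docks there, and the signal leads to uptake of the target, an oxidative burst and cytokine release. Tyrobp, also called DAP12, carries an ITAM of the same kind for other receptors. Fcgr2b is the inhibitory receptor, whose tail holds an inhibitory motif (ITIM) that recruits the phosphatase Inpp5d. Fcgrt pairs with B2m, binds IgG inside endosomes and returns it to the cell surface.

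The motifs at which this chain starts are shown first, because their tyrosines are read by a tRNA that can carry queuosine. They come from the coding sequences of the GENCODE models on GRCm39, 5′ to 3′, with the tyrosine codons in capitals. The Fcer1g motif lies in exons 4 and 5 (minus strand, chr1:171057458-171057641, intron included), that of Tyrobp in exons 4 and 5 (plus strand, chr7:30115095-30116807, intron included) and that of Fcgr2b in exon 7 (minus strand, chr1:170788640-170788657).
Fcer1g ITAM: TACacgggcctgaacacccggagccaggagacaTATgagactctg
Tyrobp ITAM: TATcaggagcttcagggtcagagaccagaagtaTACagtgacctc
Fcgr2b ITIM: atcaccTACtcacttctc
Each ITAM held 1 TAC and 1 TAT codon, in opposite order in the 2 adaptors, and the ITIM held TAC. The ITAM was searched by codons, as a tyrosine codon 3 places before a leucine or isoleucine codon, then 6 to 8 codons, then the same unit again. It occurred once each in Fcer1g and Tyrobp and in 0 of the other 6 members, and in 2.88% of all 21465 coding sequences. The looser ITIM pattern, a tyrosine codon with a codon for leucine, isoleucine, valine or serine 2 places before it and one for leucine, isoleucine or valine 3 places after it, occurred in 49.2% of them, so a match alone says little. Fcgr1 had 3 matches to the ITIM pattern, Fcgr2b, Fcgr4, Fcer1g, Fcgrt and Tyrobp had 1 each, and Fcgr3 and Syk had 0. Only the match in Fcgr2b is shown. Both patterns were read in the coding frame. A match is a description of the sequence.

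A further pair of sequences bears on how far the values of Fcgr2b and Fcgr3 can be told apart. Their coding sequences ran in parallel over 502 bases with 17 differences, and the longest identical run had 129 bases. Of the 6 pairs among the 4 Fc gamma receptors, this pair had 80.6% identity over aligned coding bases and the other 5 had 60.2% to 62.6%. A stretch of 150 bases in exons 3 and 4 of each gene is shown, with the 4 bases that differ in capitals (minus strand, introns included, chr1:170794252-170795680 for Fcgr2b and chr1:170881745-170885391 for Fcgr3, GRCm39).
Fcgr2b: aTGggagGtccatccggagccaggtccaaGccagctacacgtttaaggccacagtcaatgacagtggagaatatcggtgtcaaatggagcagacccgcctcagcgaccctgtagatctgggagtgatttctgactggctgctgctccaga
Fcgr3: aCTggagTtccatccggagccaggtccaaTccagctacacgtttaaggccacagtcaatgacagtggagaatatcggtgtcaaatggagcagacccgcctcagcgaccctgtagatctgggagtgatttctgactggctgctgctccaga
The authors' counts of both genes were not whole in 6 of 6 libraries, which shows that ambiguous reads were divided. Tyrobp had such values in 4 libraries, Fcer1g in 1, and the other 4 members in 0. The split between Fcgr2b and Fcgr3 is therefore uncertain to an extent that the table does not give.

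For 0 of the 8 members did the test of 100Q against 0Q reach the threshold. Total counts ranged from 3675918 to 6755367 in 0Q and from 4484785 to 19386533 in 100Q, with 100Q replicate 3 the deepest. Of 10554 genes, 0 (0.0%) had an adjusted p under 0.05 by edgeR's quasi-likelihood test, and 309 (2.93%) had an unadjusted p under 0.05, 0 of them members. DESeq2 and limma-voom also called 0 genes, with 356 and 302 at an unadjusted p under 0.05. Levels are given in CPM, the count of a gene scaled to a common library total after TMM normalization. A log2 fold change is 100Q relative to 0Q.

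The labelled cell type was checked against marker genes. Itgax, which encodes CD11c, had 67.6, 115 and 113 CPM without queuine and 150, 147 and 123 CPM with it, and H2-Aa of MHC class II had 482 to 666 CPM over the 6 libraries. The transcription factor Zbtb46 and the receptor Flt3, which define conventional dendritic cells, lay at 0.556 to 3.16 CPM and 0.567 to 5.48 CPM. The 16 dendritic cell markers summed to 2331 to 2646 CPM in 0Q and 2436 to 2699 CPM in 100Q, which overlap, and 10 of their estimates were above 0 and 6 below. The most abundant of these markers was Cst3, at a mean of 1163 CPM over the 6 libraries. Itgax was 1 of 3 of these markers with all libraries of 100Q above 0Q, and 1 other lay wholly below, against 4.41% and 3.84% of all tested genes. Markers of other cells that carry Fc receptors were present too. Those of monocytes and macrophages, all 15 detected, summed to 19038 to 21137 CPM without queuine and 18984 to 22766 CPM with it, although C1qa and Cx3cr1 were below 1 CPM. Lyz2, which neutrophils also express, made up 88.9% of that sum, and the other 14 markers summed to 2180 to 2577 CPM in 0Q and 2054 to 2362 CPM in 100Q. Neutrophil markers, 14 of 14 detected, summed to 17406 to 20403 CPM without queuine and 14624 to 17627 CPM with it. Of their 14 estimates 13 were below 0, against 50.0% of all tested genes. For 3 of the 14 all libraries of 100Q lay below 0Q, against 3.84% of all tested genes, and 0 passed the threshold. S100a9 and S100a8 were the most abundant of the 14, at means of 5659 and 3561 CPM over the 6 libraries. Mast cell and basophil markers, 9 of 12 detected, summed to 493 to 545 CPM without queuine and 375 to 477 CPM with it, so the sums did not overlap. Of the 9 single genes, all tested, 0 had groups that did not overlap, against 8.24% of all tested genes. Prss34 and Mcpt8 carried much of the sum, at means of 193 and 125 CPM over the 6 libraries. Tpsb2, Cma1 and Mcpt4 of mature mast cells had 0 counts. Summed markers ranged from 1375 to 1800 CPM for eosinophils, 71.0 to 91.2 CPM for B and plasma cells, 0.380 to 2.27 CPM for NK and T cells, and 409 to 513 CPM for erythroid cells and megakaryocytes. The last sum was lower in 100Q without overlap, but the platelet chemokine Pf4 made up 80.2% of it, and the other 9 markers overlapped at 83.8 to 96.5 CPM. Prg2 carried most of the eosinophil sum, at a mean of 1349 CPM over the 6 libraries, and Epx came next at 63.8 CPM. The part of these cells in the values below was not tested. In bulk RNA, fewer cells of a type and less RNA per cell cannot be told apart.

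Fcgr3 was the most abundant Fc gamma receptor. It is the low-affinity activating receptor and it had 649, 518 and 578 CPM in replicates 1 to 3 without queuine and 543, 510 and 663 CPM in replicates 1 to 3 with it. The highest and the lowest library were both from 100Q and the groups overlapped fully. The log2 fold change was -0.02 (standard error 0.13, 95% CI -0.29 to 0.25, adjusted p = 0.999 by edgeR). Fcgr3 (ENSMUSG00000059498) lies on chromosome 1 from 170878738 to 170893549 on GRCm39.

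Fcgr4, the activating receptor of intermediate affinity, had 59.1, 63.6 and 76.4 CPM without queuine and 40.1, 53.7 and 71.7 CPM with it. The 2 lowest libraries were from 100Q, and 100Q replicate 3 lay above 2 of the 0Q libraries. Its log2 fold change was -0.25 (standard error 0.22, 95% CI -0.73 to 0.22, adjusted p = 0.999 by edgeR), and it was -0.50 without 100Q replicate 3 and -0.08 without 100Q replicate 1. Fcgr4 (ENSMUSG00000059089) is on chromosome 1 from 170846466 to 170857330, between Fcgr2b and Fcgr3.

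Fcgr1, the high-affinity receptor, lies apart from the cluster on chromosome 3 (ENSMUSG00000015947, 96190225 to 96201338). It had 40.2, 30.5 and 51.4 CPM without queuine and 35.6, 30.8 and 43.6 CPM with it. The 100Q values lay within the range of 0Q. The log2 fold change was -0.14 (standard error 0.25, 95% CI -0.67 to 0.40, adjusted p = 0.999 by edgeR), and it was 0.06 without 0Q replicate 3.

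Fcgr2b, the inhibitory receptor (ENSMUSG00000026656, chromosome 1, 170786186 to 170804177), had 376, 364 and 410 CPM without queuine and 389, 343 and 392 CPM with it. The groups overlapped, with a log2 fold change of -0.03 (standard error 0.12, 95% CI -0.28 to 0.22, adjusted p = 0.999 by edgeR). The interval corresponds to a 100Q level of 0.821 to 1.16 times that of 0Q. The balance of inhibitory to activating receptor was read as Fcgr2b over the sum of Fcgr1, Fcgr3 and Fcgr4, per kilobase of the longest coding transcript. This ratio was 0.259, 0.303 and 0.297 in 0Q and 0.327, 0.296 and 0.259 in 100Q. Its means were 0.287 ± 0.024 and 0.294 ± 0.034 (SD, n = 3 each), and the difference was smaller than either SD. Without division by length the ratio ranged from 0.502 to 0.628, so its absolute size rests on the lengths used. The lowest ratios came from 0Q replicate 1 and 100Q replicate 3, the libraries with the highest Fcgr3.

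Per kilobase, Fcgr3 made up 60.6% to 66.8% of the mRNA of the 4 Fc gamma receptors over the 6 libraries. Fcgr2b made up 20.5% to 24.7%, Fcgr4 7.42% to 12.4% and Fcgr1 2.75% to 4.05%. These shares rest on the lengths used: with coding length the mean levels gave Fcgr2b 34.1%, Fcgr4 6.43%, Fcgr3 56.9% and Fcgr1 2.52%. The shares per longest transcript kept their order in every library, and for each of the 4 receptors the ranges of 0Q and 100Q overlapped.

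Fcgrt, the neonatal Fc receptor (ENSMUSG00000003420, chromosome 7, 44742412 to 44756819), had the fewest counts among the members, 59 to 320 in a library. It had 21.3, 20.7 and 24.2 CPM without queuine and 11.2, 25.3 and 16.9 CPM with it. The 0Q libraries lay close together, and those of 100Q held both the lowest and the highest value. The log2 fold change of -0.31 (standard error 0.34, 95% CI -1.02 to 0.39, adjusted p = 0.999 by edgeR) was the lowest estimate among the members, and it was -0.64 without 100Q replicate 2 and -0.08 without 100Q replicate 1. Its partner chain B2m, which it shares with MHC class I, had 2532 ± 115 CPM without queuine and 2547 ± 212 CPM with it (SD, n = 3 each), a log2 fold change of 0.01.

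Fcer1g, the chain shared by the activating receptors, was the member with the most counts per library. It had 3138, 2857 and 3216 CPM without queuine and 2985, 3008 and 3121 CPM with it. All 100Q values lay within the range of 0Q. The log2 fold change was -0.02 (standard error 0.10, 95% CI -0.22 to 0.18, adjusted p = 0.999 by edgeR), which corresponds to a 100Q level of 0.861 to 1.14 times that of 0Q. Fcer1g (ENSMUSG00000058715, chromosome 1, 171057141 to 171062219) ranked 36 by mean CPM among all tested genes.

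Tyrobp (ENSMUSG00000030579, chromosome 7, 30113170 to 30117010) had 2222, 1882 and 2172 CPM without queuine and 1974, 1806 and 1966 CPM with it. The 2 highest libraries were from 0Q, but 0Q replicate 2 lay below 2 libraries of 100Q. The log2 fold change was -0.13 (standard error 0.10, 95% CI -0.34 to 0.09, adjusted p = 0.999 by edgeR), and it had the smallest p among the members before adjustment. Its longest coding transcript has 0.609 kb. With each library's trend on transcript length removed, an alternative chosen after the data were seen, the log2 fold change of Tyrobp was -0.04. The ratio of Fcer1g to Tyrobp per kilobase was 0.833, 0.895 and 0.873 in 0Q and 0.892, 0.982 and 0.936 in 100Q. The groups overlapped only through 0Q replicate 2 and 100Q replicate 1.

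Syk, the kinase that binds phosphorylated ITAMs (ENSMUSG00000021457, chromosome 13, 52736696 to 52802828), varied most. It had 22.1, 56.0 and 56.1 CPM without queuine and 38.6, 55.2 and 40.2 CPM with it. The value of 0Q replicate 1 rested on 117 counts and lay below all other libraries, and the other 2 of 0Q lay above all of 100Q. The group means were 44.7 ± 19.6 and 44.6 ± 9.16 CPM (SD, n = 3 each), and the log2 fold change was -0.0049 (standard error 0.30, 95% CI -0.63 to 0.62, adjusted p = 0.999 by edgeR). It was -0.33 without 0Q replicate 1, 0.20 without 0Q replicate 2 and 0.18 without 0Q replicate 3, so the estimate takes its sign from single libraries. In 0Q replicate 1, transcripts of 5 kb or more lay at a median of -0.09 on the log2 scale from their mean over the libraries, and those under 1.5 kb at 0.11. Syk, with a longest coding transcript of 5.97 kb, lay at -0.92 there. With each library's trend on transcript length removed, an alternative chosen after the data were seen, its log2 fold change was -0.03. In that setting the estimates of Fcer1g and Fcgr3 changed sign, to 0.06 and 0.03.

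**Figure D1:**
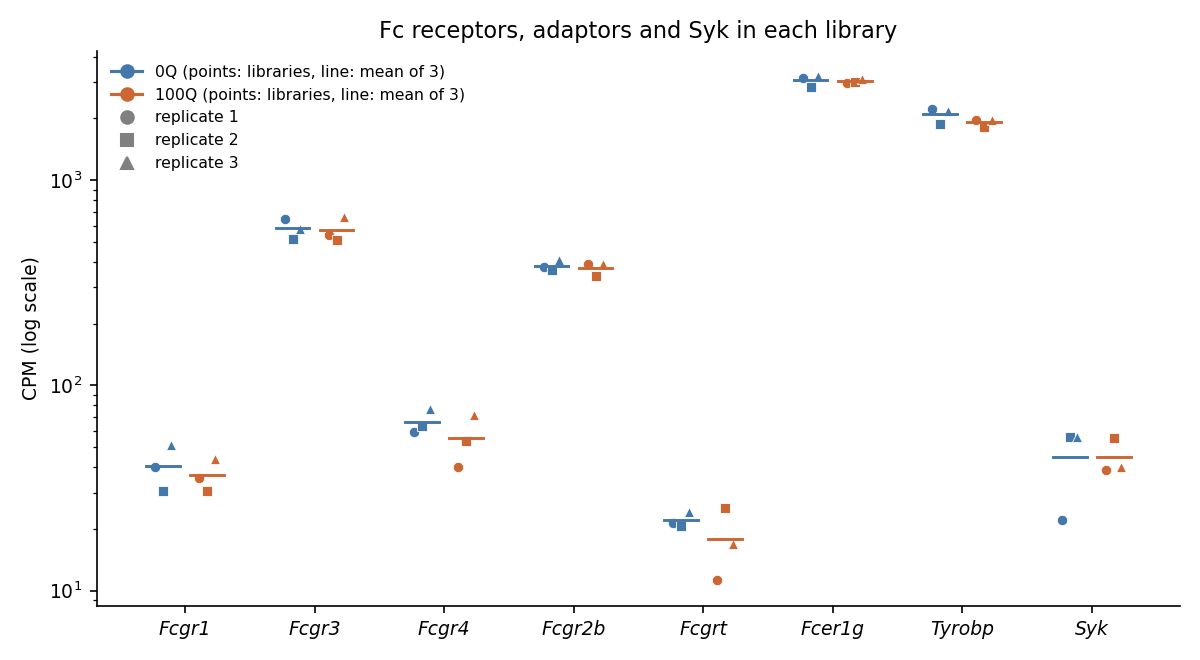
Level of each member in each library, in CPM on a log scale. Points are libraries, shaped by replicate, and lines are means of 3 libraries. The groups overlap for all 8 genes, and Syk in 0Q replicate 1 stands at 22.1 CPM below the other libraries.

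Levels can be compared between genes only per length. With CPM divided by the longest coding transcript, the order was Tyrobp, Fcer1g, Fcgr3, Fcgr2b, Fcgr4, Fcgr1, Syk and Fcgrt, with means over the 6 libraries of 3290, 2956, 291, 102, 47.5, 14.6, 7.48 and 6.80 CPM per kilobase. Fcer1g exceeded Fcgr3, the most abundant receptor, by 10.2 times, and by 14.1 times with exon union length and 16.4 times with coding length. For Tyrobp over Fcgr3 the same divisors gave 11.3, 15.8 and 8.14 times. Tyrobp lay above Fcer1g in 6 of 6 libraries, although their ranges overlapped across libraries, and with coding length as the divisor Fcer1g stood first at 11837 against 5858. The order of the other 6 was the same with exon union length and with coding length. Neighbours from Fcer1g to Syk did not overlap over the libraries. Syk and Fcgrt, the lowest pair, did overlap and differed by less than their spread.

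**Figure D2:**
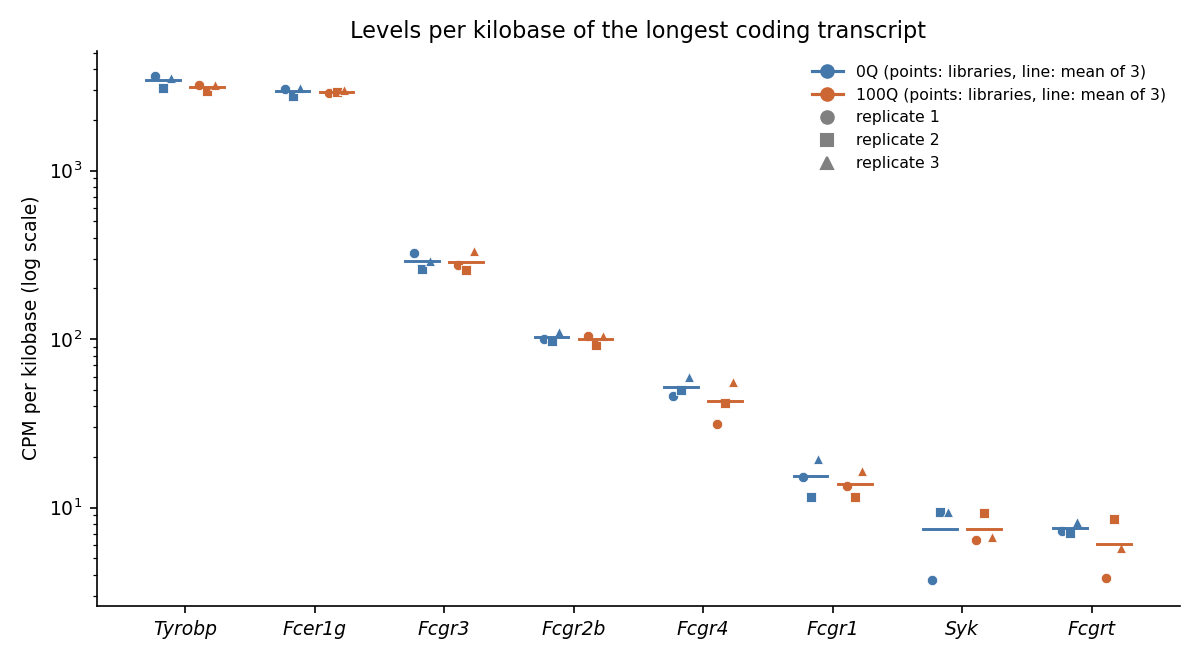
Level of each member per kilobase of its longest coding transcript, on a log scale, ordered by the mean. Points are libraries and lines are group means. The adaptors Tyrobp and Fcer1g lie between 2765 and 3648 CPM per kilobase, and Syk and Fcgrt between 3.70 and 9.39.

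The members also differed in how steady they were. Fcer1g had a coefficient of variation (CV, SD over mean) of 4.24% over the 6 libraries, and only 5 of the 153 genes at 1000 CPM or more had a lower one. The median CV of those genes was 9.42%, and Tyrobp had 8.10%. Fcgr2b had a CV of 6.21% and Fcgr3 of 11.4%, against a median of 11.7% for the 1175 genes from 100 to 1000 CPM. Fcgr1, Fcgr4, Fcgrt and Syk had 21.0%, 21.5%, 26.0% and 30.6%, against a median of 23.7% for the 4928 genes from 10 to 100 CPM. Counting error alone would give 0.760% for Fcer1g and 9.62% for Fcgrt. The CV pools both groups and covers differences between groups as well as between replicates.

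Read together, the 8 estimates lay between -0.31 and -0.0049, with a median of -0.08, while the median over all tested genes was 0.00. At 100 CPM or more, the median was -0.028 for the 4 members and -0.065 for all 1328 genes of that level. All 8 were below 0, against 50.0% of all tested genes, but each interval included 0. The count below 0 depended on the setting: it was 4 of 8 with library totals alone, 4 of 8 by limma-voom and 4 of 8 without 0Q replicate 3. It was 8 of 8 by DESeq2 and with DESeq2 size factors in edgeR, and 6 or 7 of 8 in the remaining alternatives. For 0 of the 8 did the 3 libraries of either group lie wholly on 1 side of the other, a pattern that 8.24% of tested genes showed, 4.41% with 100Q above and 3.84% with 100Q below. The whole 95% CI stayed inside 1.5-fold, up or down, for Fcgr2b, Fcgr3, Fcer1g and Tyrobp, the 4 members at 100 CPM or more, as it did for 89.5% of all genes at that level and 18.0% of all tested genes. The intervals of the other 4 members reached beyond 1.5-fold.

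**Figure D3:**
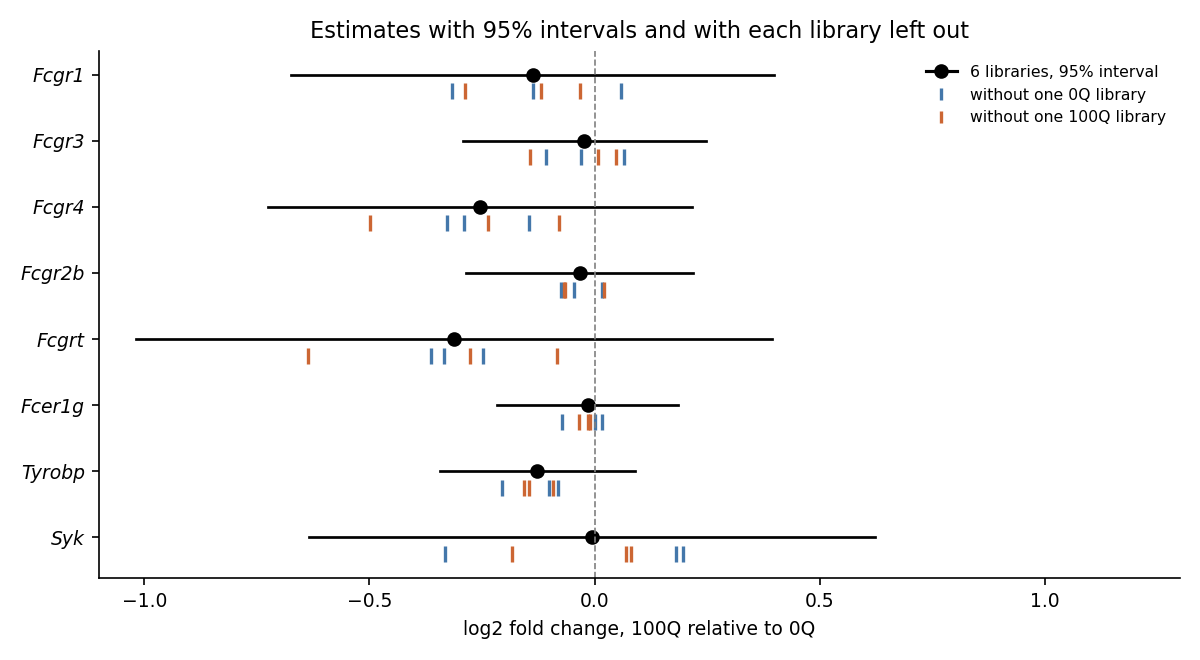
Log2 fold change of each member in 100Q relative to 0Q. Black points and lines are the edgeR estimates with 95% intervals from 6 libraries, and ticks are estimates with 1 library left out. All intervals include 0, and the ticks of Syk run from -0.33 to 0.20.

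Of the signalling genes that act with or below Syk, 31 of 34 were tested and 0 passed. Against 50.0% of all tested genes, 22 of the 31 had estimates above 0, and 9 were below, with a median of 0.09. Among them, the adaptor Lat2 had 265 ± 56.8 CPM without queuine and 271 ± 31.9 CPM with it, the scaffold Lcp2 108 ± 4.31 and 98.2 ± 17.3 CPM, and the adaptor Grb2 92.8 ± 6.87 and 106 ± 18.3 CPM (SD, n = 3 each). The members of this list with the smallest p were Bcl10 and Plcg2. Bcl10, which links Card9 to NF-κB, had 55.9, 39.9 and 35 CPM without queuine and 65.4, 58.8 and 54.9 CPM with it, so that its log2 fold change was 0.45 (standard error 0.22, adjusted p = 0.999 by edgeR). Plcg2, the phospholipase that Syk activates, had 18.1, 40.5 and 61.1 CPM without queuine and 29.1, 20.01 and 25.4 CPM with it, so that its log2 fold change was -0.67 (standard error 0.34, adjusted p = 0.999 by edgeR). It was -1.02 without 0Q replicate 1 and -0.24 without 0Q replicate 3. The groups overlapped through 0Q replicate 1, which lay above 1 library of 100Q for Bcl10 and below all 3 for Plcg2. All 100Q libraries exceeded those of 0Q for 1 gene of 31, Plcg1, at 2.74 to 4.18 CPM over 1.27 to 2.27 CPM, a share no higher than the 4.41% of all tested genes.

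Brakes on ITAM signalling, the phosphatases, ligases and adaptors that switch it off, had 17 of 18 genes tested. Of these 0 passed, and 13 had estimates above 0, against 50.0% of all tested genes. The median was 0.17, which was 0.03 without 0Q replicate 1. Ptprc, the phosphatase CD45 that also primes Src kinases, had 141, 128 and 137 CPM without queuine and 163, 156 and 145 CPM with it, with a log2 fold change of 0.19 (standard error 0.14, adjusted p = 0.999 by edgeR). Each 100Q library of Ptprc exceeded every 0Q library, as for 4.41% of all tested genes. This held for 3 of the 17 genes, a share above that 4.41%, although 0 of the 17 passed the threshold. Among the 3 was Dok1, at 2.08 to 2.96 CPM without queuine and 3.07 to 9.27 CPM with it. The phosphatase Ptpn6 had 83.1 ± 11.4 and 88.9 ± 11.5 CPM (SD, n = 3 each), and the adaptors Sla and Sla2 had log2 fold changes of -0.26 (standard error 0.19) and -0.71 (standard error 0.52).

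Receptors that borrow Fcer1g or Tyrobp, or work with them, had 22 of 25 genes tested. Of these 0 passed, 9 had estimates above 0 and 13 below, and the median was -0.02. Clec4n, or Dectin-2, a fungal sensor that uses Fcer1g, had 6185, 4478 and 5420 CPM without queuine and 5979, 4332 and 5555 CPM with it. Replicate 2 was the lowest library in both groups and the log2 fold change was -0.02 (standard error 0.13). Clec4e, or Mincle, had 496 ± 74.9 and 462 ± 68.8 CPM, and the integrin chain Itgb2 632 ± 158 and 667 ± 105 CPM (SD, n = 3 each). Csf2rb, the shared chain of the receptors for GM-CSF, IL-3 and IL-5, had 121, 222 and 194 CPM without queuine and 251, 274 and 185 CPM with it, so that its log2 fold change was 0.40 (standard error 0.19, adjusted p = 0.999 by edgeR). Its lowest value was in 0Q replicate 1, and 100Q replicate 3 lay below 2 of the 0Q libraries. Cd300ld had a log2 fold change of 0.47 (standard error 0.28). Oscar had 0 counts in all 6 libraries, which allows 0.155 CPM in the deepest. The median of this list was 0.09 without 0Q replicate 1.

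A list drawn up for ITIM receptors of myeloid cells other than Fcgr2b, whose motifs were not checked gene by gene, had 17 of 19 genes tested. Of these 0 passed the threshold, 8 estimates were positive and 9 negative, and their median was -0.0050. Lilrb4a is an inhibitory receptor, and no such role is given here to Lilrb4b. Lilrb4a and Lilrb4b had 2196 ± 220 and 1333 ± 135 CPM without queuine and 2212 ± 246 and 1383 ± 123 CPM with it (SD, n = 3 each). These are near-identical neighbours, so the division of reads between them is uncertain. Clec4a2 had 397 ± 85.5 and 386 ± 32.7 CPM, Cd300a a log2 fold change of -0.13 (standard error 0.13) and Pecam1 -0.50 (standard error 0.37).

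The machinery of Fc-driven uptake, made up of actin regulators, the NADPH oxidase and endosomal genes, had 27 of 27 genes tested. Of these 0 passed, 17 had estimates above 0, against 50.0% of all tested genes, and the median was 0.07. Cybb, the catalytic subunit of the oxidase, had 859, 849 and 756 CPM without queuine and 910, 980 and 912 CPM with it, with a log2 fold change of 0.18 (standard error 0.11, adjusted p = 0.999 by edgeR). Abi1, a subunit of the WAVE complex that starts actin branching, had 45.9, 48.2 and 43.3 CPM without queuine and 71.5, 66.1 and 48.6 CPM with it, so that its log2 fold change was 0.43 (standard error 0.21). These 2 of 27 genes had all 3 libraries of 100Q above 0Q, near the 4.41% of all tested genes. The GTPases Cdc42 and Rac2 had log2 fold changes of -0.12 (standard error 0.12) and -0.17 (standard error 0.12). Without 0Q replicate 1 the median of the list was -0.0023.

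**Figure D4:**
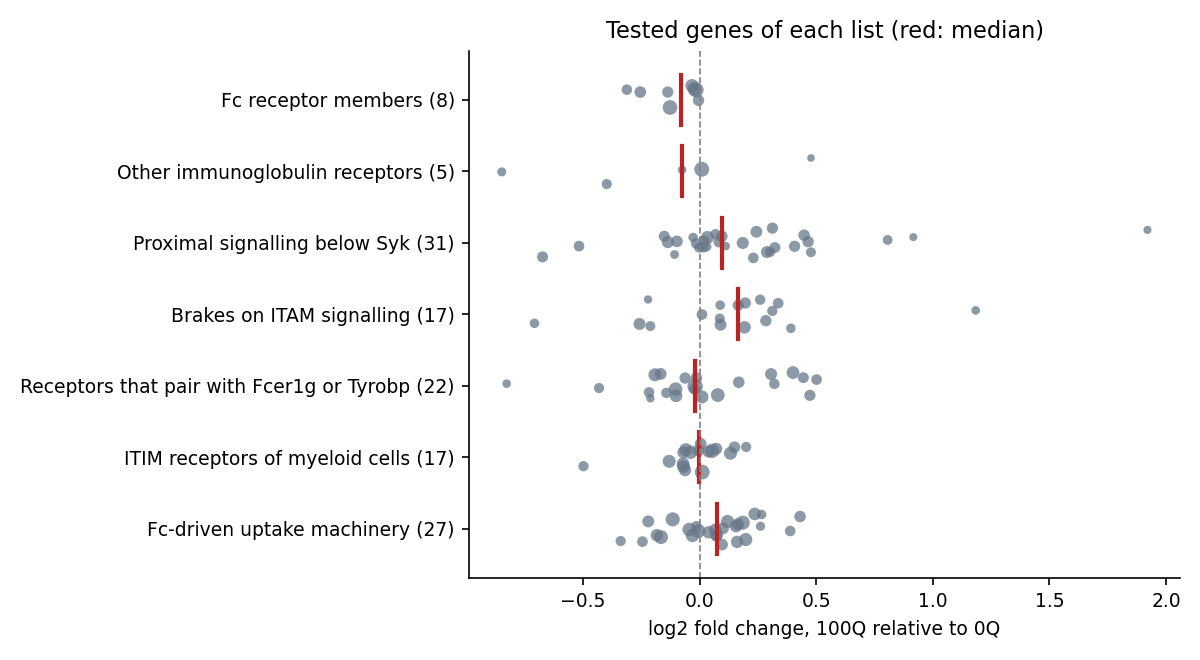
Log2 fold change in 100Q relative to 0Q of each tested gene, by list, with the number tested in brackets. Points are genes, larger where the mean CPM is higher, and red bars are medians, which lie between -0.08 and 0.17. No gene passed the test.

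Among other receptors for immunoglobulins, 5 of 14 listed genes were tested and 0 passed. B2m, the partner chain of Fcgrt and not itself such a receptor, is counted among the 5. The IgE receptor needs Fcer1g too: its alpha chain Fcer1a had 5.85, 4.23 and 11.1 CPM without queuine and 3.61, 1.69 and 5.97 CPM with it, and its beta chain Ms4a2 12.1, 12.1 and 22.5 CPM and 11.03, 9.48 and 14.3 CPM. The log2 fold changes were -0.85 (standard error 0.60) and -0.40 (standard error 0.38), with an edgeR adjusted p of 0.999 for both, and the groups overlapped. Without 0Q replicate 3 they were -0.38 and -0.05, and without 100Q replicate 3 -1.39 and -0.59. Both genes mark mast cells and basophils, whose summed markers were lower in all 3 libraries of 100Q as given above. That list contains Fcer1a and Ms4a2. Without them its sum was 475 to 528 CPM in 0Q and 364 to 462 CPM in 100Q, and the estimates were positive for 2 tested genes and negative for 5 (median -0.16). The basophil proteases Mcpt8 and Prss34 had log2 fold changes of -0.32 (standard error 0.16) and -0.31 (standard error 0.16). The part of these cells in the values of Fcer1a, Ms4a2 and Fcer1g was not tested. Fcamr, Pigr, Fcrl6 and Fcrlb had 0 counts in all libraries, which allows 0.155 CPM in the deepest and 0.816 CPM in the shallowest, for counting error only.

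Because queuosine sits in tRNAs that carry Tyr, His, Asp and Asn, the codons for these amino acids were counted in each member. They end in U or C, and the study compares cells that differ in the supply of the modification. These libraries measured mRNA and not the reading of codons. Syk had 113 such codons, 18.0% of its 629, and only 28 of them (24.8%) ended in U. That share was lower than in all but 7.53% of the 19405 genes with at least 20 such codons, whose median was 43.0%. Its 35 tyrosine codons were 28 TAC and 7 TAU. Fcgr3 had 14 of 46 ending in U (30.4%), Fcgr1 20 of 51 (39.2%), Fcgr4 15 of 38 (39.5%), Fcgr2b 23 of 49 (46.9%) and Fcgrt 23 of 41 (56.1%). Fcgr2b and Fcgr3 thus differed in this share despite their long shared stretch. The adaptors had few: Fcer1g 9 with 6 ending in U, and Tyrobp 11 with 2. With 8 genes and 0 changes past the threshold, no relation between codons and mRNA was read from these values.

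**Figure D5:**
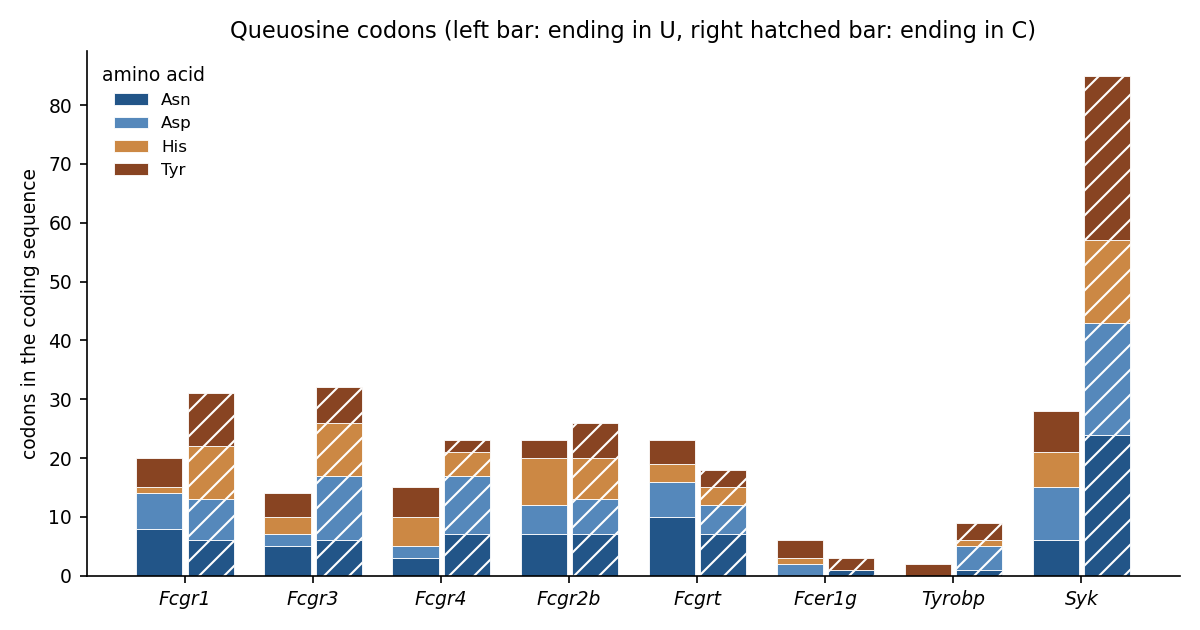
Codons for Asn, Asp, His and Tyr in the coding sequence of each member, stacked by amino acid. Plain bars count codons ending in U and hatched bars those ending in C. Syk has 28 and 85, and Fcer1g 6 and 3.

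The genes most like Fcer1g and Syk across the 6 libraries were named by Pearson's r of log2(CPM + 1), among genes at 100 CPM or more. For Fcer1g they were Rack1, a ribosome scaffold (r = 0.99), Micos10, a mitochondrial membrane protein (r = 0.99), and Atp5f1e, a subunit of ATP synthase (r = 0.98), out of 1327 genes. For Syk they were Gsr, glutathione reductase (r = 0.99), Tram1, which helps proteins enter the endoplasmic reticulum (r = 0.96), and Flna, filamin A (r = 0.95), out of 1328. Each of these 3 had its lowest value in 0Q replicate 1, with Flna at 89.3 CPM there and 140 to 209 CPM in the other libraries. With n = 6 libraries that differ in depth, and with the best of over 1000 genes taken, these values describe the libraries and are no test.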

How the data were processed

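The deposited table holds the authors' expected counts, 1 column for each of 6 libraries. FastQC, STAR and RSEM on mm39 (GRCm39) are named in the submitters' processing notes. No source used here gives tool versions, annotation release, read length or strandedness. Ambiguous reads are divided by RSEM, and between 5.51% and 10.5% of a library's values were fractional. All were rounded before testing. GENCODE mouse release 39 on GRCm39 gave symbols, positions, lengths and coding sequences, except for 502 identifiers without a match. Codons and motifs were read from 1 coding sequence per gene. Annotated genes that overlap a member had 0 counts.

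The main test was edgeR 4.0.16 in R 4.3.3: filterByExpr, TMM, robust glmQLFit and glmQLFTest, with Benjamini-Hochberg adjustment over all tested genes and a threshold of 0.05. The code was tested on simulated data. CPM used TMM-scaled totals of tested genes. The standard error is the absolute log2 fold change over the root of F, and each 95% CI uses the total degrees of freedom. Alternatives comprised DESeq2 1.42.0, limma-voom (limma 3.58.1), other scalings and filters, thinning of 100Q replicate 3, a block on the replicate number, and omission of single libraries.

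The members and gene lists were chosen with earlier results of these data known. Named genes are all members, and the 3 most abundant and the 2 with the smallest p of each pathway list. Some of the most abundant markers, some markers at 0, and the genes most like Fcer1g and Syk are also named. Plcg1, Itgax, Flt3, Zbtb46, C1qa and Cx3cr1 were added after their values were seen. Libraries differed from each other by more than sampling noise (chi-square per gene 8.73 to 19.5), so no library was a copy. Some results are not reported here.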

Additional observations from a re-analysis of the deposited data

How the results depend on the processing

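The call of 0 members held under all 15 alternatives, as did 0 calls in each of the 6 other pathway lists. Over all genes the count was 0 except without 0Q replicate 1 (2 genes) and without 0Q replicate 2 (1 gene), none of them in a pathway list, which is a range of 0 to 2 with single libraries omitted. Estimates of members changed sign in 12 of 48 values with a library left out and in 14 of 72 in the other settings, none of them called, and for other named genes in 21 of 162 and 10 of 240. Of the 27 other named genes, 23 had an estimate that moved by over 1.5 times or changed sign with some library left out. The members' median of -0.08 ranged from -0.16 to -0.0062 over omitted libraries. The median of the receptors that borrow Fcer1g or Tyrobp ranged from -0.044 to 0.090 over omitted libraries, and that of the uptake machinery from -0.0023 to 0.13, in each case with 0Q replicate 1 moving it by more than the spread between replicates. The median of the brakes, 0.17, was 0.03 without 0Q replicate 1, 0.09 without 100Q replicate 2 and 0.04 by limma-voom. Without a filter on low counts the median of the other immunoglobulin receptors was -0.46, over 10 genes in place of 5. The cause was not tested. A block on the replicate number gave 0 genes past the threshold, the members' median was -0.08 and no call changed. Deviations of same-numbered libraries correlated at 0.0030, 0.19 and -0.08, so the numbers do not show a pairing. Removal of the transcript length trend was added after the data were seen, and the members' median was then -0.03. Depth differed between libraries, and Fcgrt, with 59 to 320 counts, had a 95% CI of 0.494 to 1.31 times the 0Q level.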

Other observations

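The levels of the 2 adaptor chains were set beside those of receptors known to use them, per kilobase of the longest coding transcript, a comparison chosen after the data were seen. The 8 receptors listed for Fcer1g summed to 1.43 to 1.93 times the level of the chain in the 6 libraries. Most of that sum was Clec4n, which had a mean of 4287 CPM per kilobase (3488 to 4980 over the 6 libraries) against 2956 for Fcer1g. Fcgr1, Fcgr3 and Fcgr4 together were a small part of that sum. The 11 receptors listed for Tyrobp summed to 255 CPM per kilobase, 0.0778 times the level of Tyrobp (0.0690 to 0.0835 over the libraries), with Trem3 at 70.9 and Clec5a at 62.6. Itgb2, Csf2rb and Cd300ld, named above among receptors that borrow or work with these chains, are in neither sum. Their means were 649, 208 and 36.5 CPM over the 6 libraries. Treml4, Clec4b1, Clec4b2, Pira1, Oscar, Cd300c2 and Klrk1, which belong to the same list of receptors, are also in neither sum. Both sums are of mRNA levels and rest on the lengths used and the receptors chosen, and protein was not measured.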
